A study of Eriocheir sinensis with 6 samples.

Results

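The genes described here are abundant transcripts of inter-molt crab muscle that had an accessible promoter and whose level differed widely between animals. A gene model was taken when it lay on a placed sequence of the assembly, was shorter than 6000 bases, averaged from 100 to under 1000 FPKM over 3 crabs and ranged over at least 2 units of log2(FPKM + 1), which is about 4-fold. FPKM is the read count of a gene scaled for the length of its model and for a library size. It also needed an ATAC-seq peak within 2 kb of its transcription start site (TSS) in at least 1 library. These conditions left 161 of 28671 listed genes, and they are called variable genes below. The 244 genes that met every condition except the range are called steady genes and were used for comparison. The variable genes were selected on their mean FPKM and its range over the crabs, so both are given as a description and were not tested.

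Muscle was taken from 3 wild-type, untreated Chinese mitten crabs (Eriocheir sinensis) of a farmed stock in the inter-molt stage, and each crab gave 1 RNA-seq and 1 ATAC-seq library. There was no other stage or treatment, so the comparisons are between crabs and between groups of genes. Reads on genes numbered 6772294 for crab 1, 7391379 for crab 2 and 7920094 for crab 3, and their ATAC lists had 57320, 49574 and 56919 peaks. The peak names in the third ATAC list carry the number 7, so that its link to crab 3 rests on the sample record. For crab 3 the FPKM had been scaled to a library size of 0.491 times the number of reads, whereas this factor was 1.04 for crab 1 and 1.27 for crab 2. Values on plain read totals, which take the number of reads itself as the library size, are therefore given beside the deposited ones.

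A promoter must usually be freed of nucleosomes before transcription can start, and the Tn5 transposase used in ATAC-seq cuts such open DNA more often than packed DNA. Striated muscle spends much of its transcription on contractile proteins and on the enzymes that supply their energy. An accessible promoter marks a gene that can be transcribed, but the amount of its RNA also depends on the rate of initiation and on how fast the RNA is lost. The gene models carry no names in the sources used here, so that neither the products of the variable genes nor markers of muscle and of other cell types could be looked up. In a tissue sample, fewer cells of a type and less RNA per cell cannot be told apart.

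The variable genes were widely spread over the genome. They lay on 62 of the 72 placed sequences, against 65 for the steady genes, with at most 8 variable genes on any of them. Their gene models were short, with a median length of 1008 bases, against 1209 bases for the steady genes, and a median span of 5191 bases including introns, against 8312 bases. A model without any intron was found for 26 of 161 variable genes (16.1%) and for 20 of 244 steady genes (8.20%). The share was 10.6% over all models with a mean of at least 1 FPKM. Of the 26, 7 lay in runs of neighbouring models described below and are not independent. Among the 137 variable genes highest in crab 3 the share was 11.7%. Of all reads, 3.78%, 3.53% and 5.73% fell on the variable genes in crabs 1, 2 and 3, and 9.93%, 10.9% and 6.38% fell on the steady genes. Wilson 95% intervals of these shares reached at most 0.0225 percentage points to either side and cover counting error only.

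Among the 405 genes of this class, 39.8% reached the range of 2, against 14.4% of the 12319 genes with a mean of at least 1 FPKM, and nothing is read from these shares because the rule used the range. The variable genes fell into unequal groups by the position of crab 3. Crab 3 was highest in 137 genes, or 33.8% of the class, against 8.43% of all genes with a mean of at least 1 FPKM. It was lowest in 19 genes, or 4.69% of the class, against 5.03%. This split turned round when the whole rule was applied on plain read totals, where crab 3 was highest in 11 and lowest in 56 of the 73 genes found. In the other 5 genes crab 3 lay between crabs 1 and 2. Counted by the other animals, crab 1 was highest in 4.44% of the class and crab 2 in 1.48%, against 3.17% and 2.77% of all genes with a mean of at least 1 FPKM. Nothing is read from the shares by crab either, since the rule used the same values. A high value in a single crab, such as crab 3, can carry a gene over the lower limit of the mean. Crabs 1 and 2 stayed within 2-fold of each other in 121 of the 161 genes, against 214 of the 244 steady genes. In the 121 genes crab 3 had to be the animal apart, because the rule requires a range of about 4-fold.

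**Figure D1:**
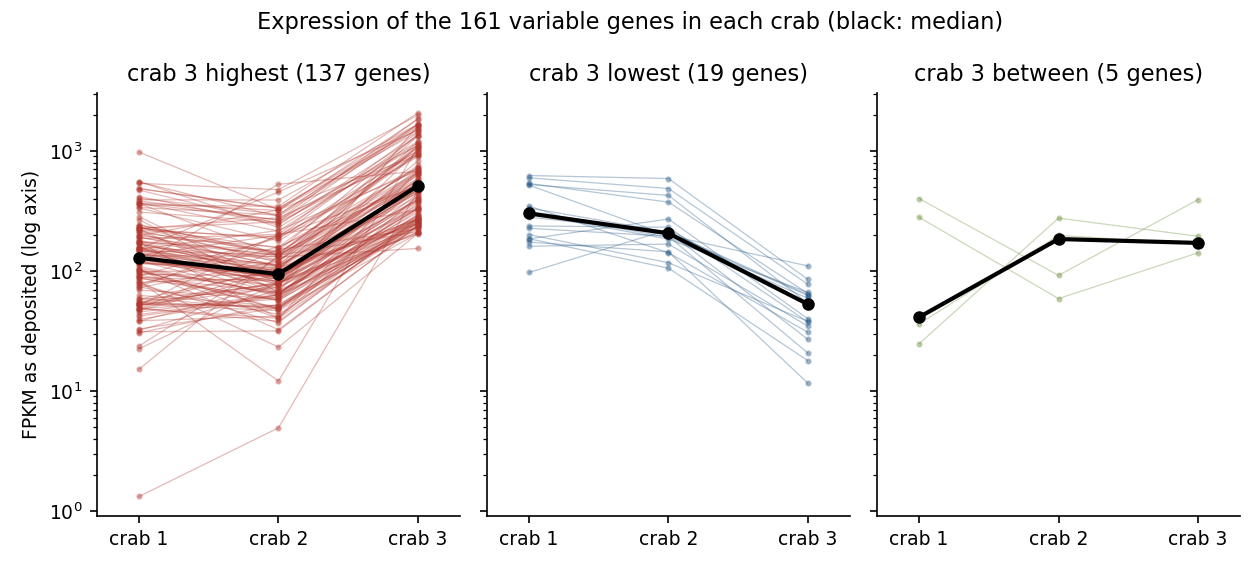
FPKM as deposited (log axis) of each variable gene in crabs 1, 2 and 3, with 1 thin line per gene and the median of each group in black. In the 137 genes with crab 3 highest the median was 129, 94.1 and 511 FPKM in crabs 1, 2 and 3, and in the 19 genes with crab 3 lowest it was 301, 206 and 52.9 FPKM.

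The widest range of all belonged to evm.TU.CM024135.1.814, at 27521470 to 27522306 on sequence CM024135.1. It had 1.32 and 4.93 FPKM in crabs 1 and 2 and 465 FPKM in crab 3, from 6, 30 and 1167 reads. The transcript was thus barely detected in the first 2 crabs and abundant in the third. Plain read totals gave 1.37, 6.28 and 228 FPKM. Its promoter carried a peak only in the ATAC library of crab 3, with a fold enrichment of 2.39, the ratio of the pileup at the summit to the local background. The summit lay at -92 bases from the TSS, on the upstream side.

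Next came evm.TU.CM024137.1.279, at 12743195 to 12743943 on CM024137.1, with 82.8, 12.1 and 1072 FPKM in crabs 1, 2 and 3. Here crabs 1 and 2 also differed, from 363 and 71 reads, and crab 2 was the one library without a promoter peak. The gene evm.TU.CM024132.1.170, at 6784134 to 6788344 on CM024132.1, was measured from 6744, 2254 and 22652 reads, the deepest of the 161 genes in crab 3, and had 268, 66.8 and 1625 FPKM. Its promoter was open in every library, with fold enrichments of 3.40, 4.41 and 3.18, and was strongest in crab 2, where the transcript was lowest.

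In evm.TU.CM024164.1.276, at 7703027 to 7719957 on CM024164.1, the values were 72.6, 120 and 1336 FPKM. In evm.TU.CM024136.1.291, at 11562487 to 11573066 on CM024136.1, they were 48.6, 40.4 and 692 FPKM. In both genes crabs 1 and 2 were within 2-fold of each other and crab 3 stood far above them, and in both the promoter peak was also highest in crab 3, at 6.15 and 4.0. The gene evm.TU.CM024114.1.247, at 7915671 to 7917196 on CM024114.1, was different in kind, with 15.2 FPKM in crab 1, 135 in crab 2 and 213 in crab 3. Crab 1 was the one apart there, with 40 reads against 476 in crab 2 and 310 in crab 3, and on plain read totals crab 2 was highest, with 172 FPKM against 104 in crab 3.

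The most abundant variable genes all had crab 3 highest, with smaller folds. They were ranked by the mean of the deposited FPKM, which a high value in crab 3 itself raises. The first, evm.TU.CM024117.1.308, is a model without an intron of 213 bases at 10471297 to 10471509 on CM024117.1. It averaged 999 ± 854 FPKM (SD, n = 3), with 537, 475 and 1984 FPKM in crabs 1, 2 and 3. With plain totals its values were 557, 605 and 974 FPKM, a ratio of highest to lowest of 1.75 in place of 4.18. For evm.TU.CM024120.1.145, at 3731456 to 3736646 on CM024120.1, they were 354, 345 and 2081 FPKM as deposited and 367, 440 and 1021 FPKM on plain totals. Likewise evm.TU.CM024162.1.47, at 2102418 to 2115137 on CM024162.1, had 369, 319 and 1828 FPKM, and evm.TU.CM024142.1.443, at 12437583 to 12444319 on CM024142.1, had 384, 266 and 1856 FPKM. In these 3 genes crab 3 stayed highest under both scalings, with ratios of highest to lowest of 6.03, 5.73 and 6.99 as deposited and 2.78, 2.34 and 2.69 on plain totals.

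The exception among them was evm.TU.CM024107.1.114, at 2010596 to 2022195 on CM024107.1, with 978, 324 and 1442 FPKM as deposited. On plain totals crab 1 was highest, at 1016 FPKM against 413 in crab 2 and 708 in crab 3. The sixth, evm.TU.CM024099.1.256, at 8092252 to 8097818 on CM024099.1, had 484, 331 and 1656 FPKM and also the strongest promoter of all variable genes, with fold enrichments of 17.9, 13.6 and 14.0 in crabs 1, 2 and 3. Its fold enrichment was highest in the ATAC library of crab 1, whereas its transcript was highest in crab 3.

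How many of the genes with crab 3 highest reached the range depended on the scaling of that library. On plain read totals crab 3 was still highest in 122 of the 137 genes, but only 15 of the 137 kept a range of at least 2. These 15 included genes highest in crab 2 on plain totals, evm.TU.CM024114.1.247 among them. The change of scaling moved the median log2 value of 9366 genes by -1.03 in crab 3, by 0.35 in crab 2 and by 0.05 in crab 1, relative to which these differences stand. The median ratio of crab 3 to crab 1 in this group was 4.29 as deposited and 2.03 on plain totals. For the steady genes it was 1.52 and 0.719. The 15 genes included the 6 of widest range described above, together with evm.TU.CM024144.1.312 (CM024144.1, 9963970 to 9975132), a gene picked after its values were seen. Its 2727, 3770 and 18203 reads gave 98.7, 102 and 1191 FPKM as deposited and 103, 130 and 585 FPKM on plain totals. Scaling by the median ratio of genes, which assumes that most genes do not differ, left all 137 with a range of at least 2.

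**Figure D2:**
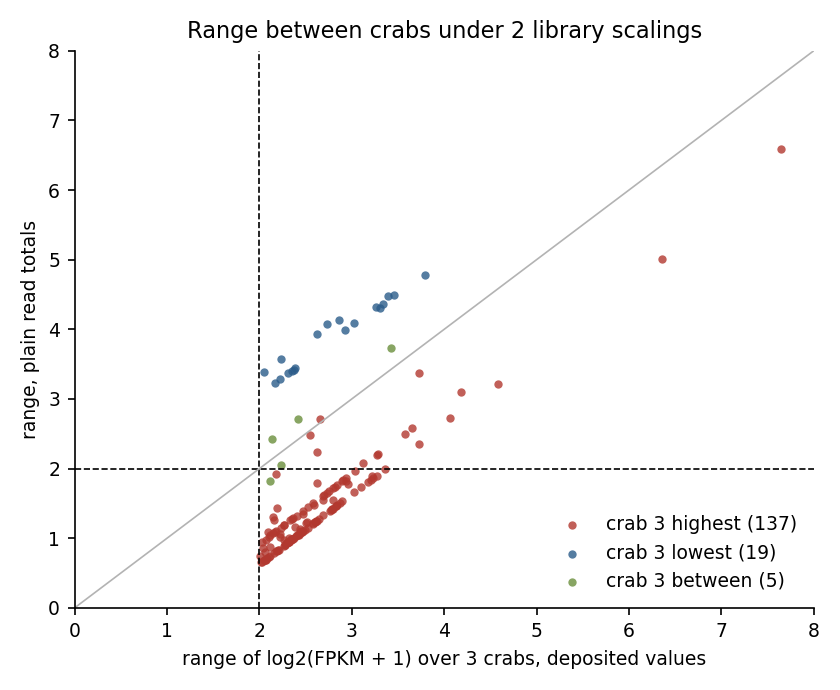
Range of log2(FPKM + 1) over the 3 crabs for each variable gene, with deposited values on the horizontal axis and plain read totals on the vertical axis. Dashed lines mark the range of 2, and the grey line marks equal ranges. All 19 genes with crab 3 lowest (blue) stay above the dashed line under both scalings, against 15 of the 137 with crab 3 highest (red).

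Values near the limit show how the threshold divides the class. The variable genes with the smallest range were evm.TU.CM024166.1.567 (117, 103 and 416 FPKM in crabs 1, 2 and 3, range 2.01), evm.TU.CM024135.1.741 (159, 130 and 530 FPKM, range 2.02) and evm.TU.CM024140.1.110 (127, 81.4 and 334 FPKM, range 2.02). Just outside lay evm.TU.CM024120.1.81 (542, 271 and 138 FPKM, range 1.97), evm.TU.CM024164.1.219 (241, 61.2 and 122 FPKM, range 1.96) and evm.TU.CM024102.1.236 (49.3, 74.0 and 195 FPKM, range 1.96).

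All 19 genes with crab 3 lowest kept a range of at least 2 on plain read totals, where the median range was 3.99, against 2.73 as deposited. Plain totals lower every value of crab 3, so this was bound to happen and is no check of these genes. Scaling by the median ratio of genes left 18 of them above the limit. Of the 5 genes with crab 3 between the others, 4 kept the range on plain totals. The 19 genes with crab 3 lowest together held 0.837%, 0.719% and 0.0564% of the reads from crabs 1, 2 and 3. On plain totals 19.7% of all genes with a mean of at least 1 FPKM reached the range with crab 3 lowest, so that low values in crab 3 were common under that scaling.

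Of these 19 genes, 9 had no intron in their model (47.4%), against 16 of the 137 genes with crab 3 highest (11.7%). The count is not one of independent genes, since 7 of the 9 lay in 2 runs of neighbouring models. The first run consists of evm.TU.CM024136.1.358, evm.TU.CM024136.1.359, evm.TU.CM024136.1.360 and evm.TU.CM024136.1.361, models of 1893, 1008, 258 and 333 bases on the plus strand of CM024136.1. They follow one another between 13071076 and 13074987, with 275, 31 and 114 bases between them.

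The first of this run, evm.TU.CM024136.1.358, had 596, 486 and 77.3 FPKM in crabs 1, 2 and 3, from 7936, 8665 and 569 reads. The second, evm.TU.CM024136.1.359, had 525, 426 and 53.8 FPKM. The shortest, evm.TU.CM024136.1.360, had 535, 374 and 64.8 FPKM. The last, evm.TU.CM024136.1.361, had 623, 588 and 85.0 FPKM, the highest mean of the 19 genes at 432 ± 301 FPKM (SD, n = 3). All 4 models thus stood at a similar level in each crab, and the ratio of highest to lowest was between 7.34 and 9.75. The nearest models on either side were weakly expressed, with 4.14, 3.09 and 4.49 FPKM for evm.TU.CM024136.1.357 and 5.31, 6.27 and 2.02 FPKM for evm.TU.CM024136.1.362.

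The second run lies on the minus strand of CM024100.1. Its variable genes are evm.TU.CM024100.1.216, at 10854767 to 10855483, evm.TU.CM024100.1.217, at 10855630 to 10856736, and evm.TU.CM024100.1.219, at 10864154 to 10865062. They had 280, 211 and 26.9 FPKM, 226, 194 and 20.7 FPKM, and 174, 144 and 11.6 FPKM in crabs 1, 2 and 3. The low values of crab 3 rest on 75, 89 and 41 reads.

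Long models beside them, looked up after the values of the run were seen, showed the same order of crabs. The model evm.TU.CM024100.1.215, at 10811144 to 10854734, was too long for the rule at 6237 bases and had 369, 326 and 66.6 FPKM. The composite model that begins at 10857320 and ends at 10969100 encloses evm.TU.CM024100.1.219 and had 100, 75.4 and 6.95 FPKM, so that reads of the enclosed gene could not be told apart from those of its host. The block of low values in crab 3 therefore reached over 5 models in a row. The next model, evm.TU.CM024100.1.221, had 0.520, 0.291 and 0.196 FPKM, and on the other side evm.TU.CM024100.1.214 had 0, 3 and 1 reads.

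**Figure D3:**
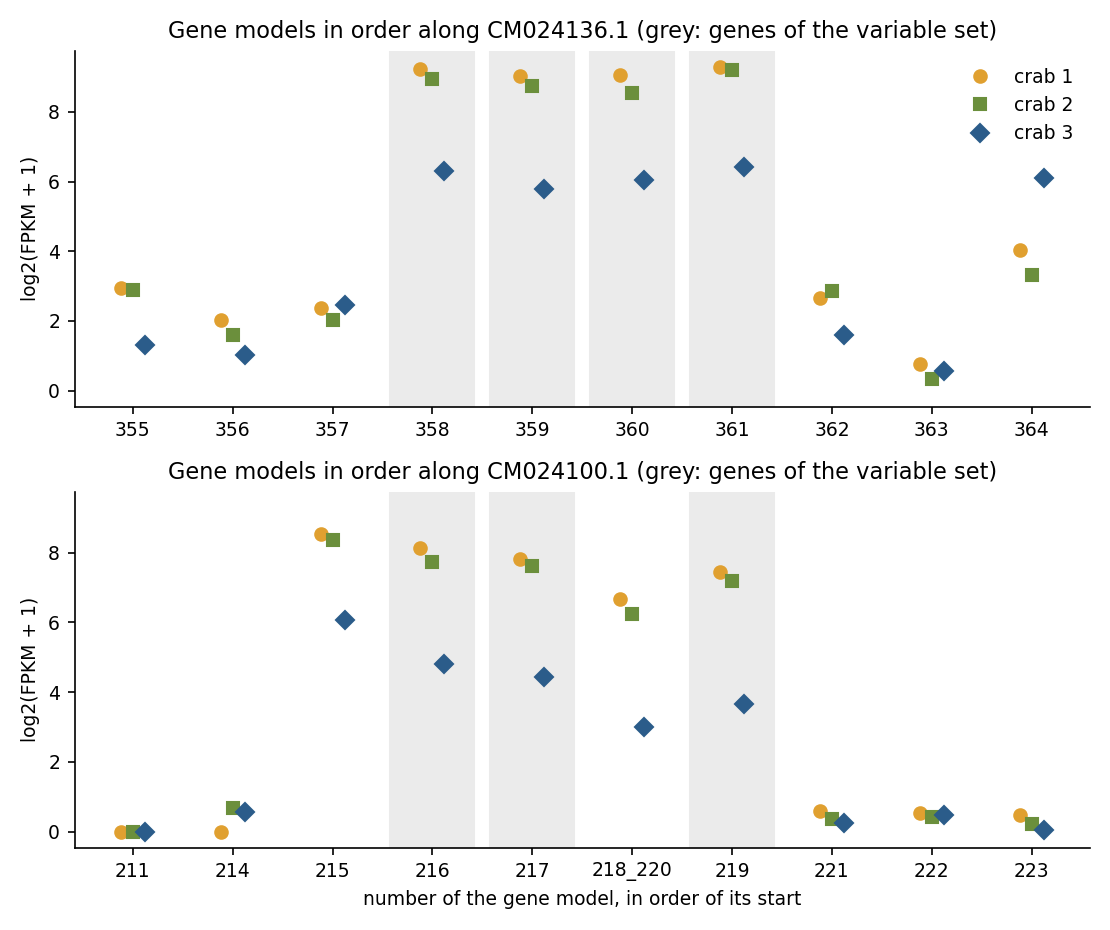
Level of consecutive gene models, log2(FPKM + 1), along sequence CM024136.1 (top) and sequence CM024100.1 (bottom), with 1 symbol per crab and grey bands behind the variable genes. Crab 3 lies below crabs 1 and 2 in all 4 models of the upper run and in all 5 expressed models of the lower run, and the flanking models shown are weakly expressed, apart from the last one above, which was highest in crab 3 at 68.1 FPKM.

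The other genes with crab 3 lowest stood alone or in looser groups. In evm.TU.CM024160.1.443, at 16554572 to 16595510 on CM024160.1, the values were 347, 142 and 30.8 FPKM, from 12831, 7019 and 629 reads, and crab 2 lay between the others. The genes evm.TU.CM024133.1.221, at 9051869 to 9058699, and evm.TU.CM024133.1.223, at 9072764 to 9082093 on CM024133.1, are separated by 1 model. They had 306, 192 and 59.2 FPKM and 201, 117 and 38.0 FPKM, with the crabs in the same order and folds of 5.17 and 5.29. Crab 2 was highest in only 3 of the 19. The widest of these, evm.TU.CM024131.1.233, at 6499121 to 6504549 on CM024131.1, had 185, 271 and 39.9 FPKM. In evm.TU.CM024119.1.528, at 20196933 to 20211050 on CM024119.1, the values were 161, 167 and 34.7 FPKM, with crabs 1 and 2 nearly equal.

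In the 5 genes with crab 3 between the others, crabs 1 and 2 were the extremes, which the range required by the rule sets far apart. Crabs 1 and 2 also differed at least 2-fold in 32 of the 137 genes with crab 3 highest and in 3 of the 19 with crab 3 lowest. The gene evm.TU.CM024160.1.350, at 13923328 to 13933760 on CM024160.1, had 24.7, 276 and 194 FPKM, so that crab 1 was the low one. The same was seen in evm.TU.CM024118.1.498, at 19024333 to 19025061 on CM024118.1, with 41.2, 184 and 171 FPKM, and in evm.TU.CM024118.1.500, at 19025746 to 19026605, with 36.2, 198 and 168 FPKM. These 2 models are separated by 684 bases, with 1 further model between them, and their values were alike in each crab. In the remaining 2 genes crab 2 was lowest, with 401, 91.8 and 392 FPKM for evm.TU.CM024162.1.215 and 280, 58.8 and 142 FPKM for evm.TU.CM024164.1.220. On plain totals evm.TU.CM024162.1.215 had a range of only 1.82. There evm.TU.CM024164.1.220 was lowest in crab 3, at 69.5 FPKM against 75.0 in crab 2. The steady gene evm.TU.CM024164.1.219, named above as just outside the limit, precedes evm.TU.CM024164.1.220 and had its crabs in the same order as deposited.

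Some variable genes were direct neighbours. There were 13 pairs of adjacent gene models, made up of 24 genes, and in all 13 pairs both genes were highest in the same crab. Since crab 3 was highest in 85.1% of the variable genes and close pairs can share reads and peaks, nothing about neighbours is read from this count. The lowest crab was the same in 12 of the 13 pairs. The gap between the 2 models of a pair was between 31 and 5095 bases with a median of 204, and in 6 pairs both genes were assigned the same promoter peaks. Whether models so close are parts of 1 transcript was not tested. The genes evm.TU.CM024135.1.772, at 26834916 to 26835200, and evm.TU.CM024135.1.773, at 26835405 to 26835855 on CM024135.1, form such a pair on opposite strands. They had 174, 148 and 1379 FPKM and 147, 137 and 1066 FPKM in crabs 1, 2 and 3, under the same peak with fold enrichments of 5.10, 5.46 and 5.59.

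Other pairs held less abundant genes. The genes evm.TU.CM024097.1.295 and evm.TU.CM024097.1.296, at 8391543 to 8392919 on CM024097.1, had 48.0, 102 and 271 FPKM and 30.5, 52.9 and 224 FPKM. The genes evm.TU.CM024164.1.303 and evm.TU.CM024164.1.304, at 8058173 to 8061449 on CM024164.1, had 197, 323 and 928 FPKM and 135, 199 and 718 FPKM. In both pairs crab 1 was lowest and crab 3 highest. The genes evm.TU.CM024145.1.648 and evm.TU.CM024145.1.649, at 19369618 to 19386482 on CM024145.1, had 283, 78.5 and 511 FPKM and 81.9, 23.2 and 206 FPKM, with crab 2 lowest. The pair in which the lowest crab differed was evm.TU.CM024135.1.453, with 58.1, 102 and 250 FPKM, and evm.TU.CM024135.1.454, with 120, 81.9 and 519 FPKM.

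When the nearest gene model of at least 1 FPKM on each side was taken, whatever its range, 129 of 161 variable genes (80.1%) had at least 1 such neighbour that was highest in the same crab, against 189 of 244 steady genes (77.5%). These shares follow the scaling, since crab 3 was highest in 38.5% of all genes with a mean of at least 1 FPKM as deposited, and on plain read totals the count for the variable genes was 81. Among the genes with crab 3 lowest it was 18 of 19 for the variable genes and 39 of 50 for the steady genes. No test was made of these counts, since neighbouring genes can share reads and peaks.

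Promoter accessibility was measured apart from the expression that chose the genes, except that at least 1 peak was required. A peak was found in all 3 ATAC libraries for 111 of 161 variable genes (68.9%) and for 161 of 244 steady genes (66.0%), and the share was 57.9% over all genes with a mean of at least 1 FPKM and a promoter peak. By library, 144, 115 and 149 variable genes had a promoter peak in crabs 1, 2 and 3. Crab 2, which had the fewest peaks in all, was also the library missing in 23 of the 25 variable genes with peaks in 2 libraries. The median fold enrichment of the variable genes was 3.84, 3.83 and 5.07 in crabs 1, 2 and 3, and that of the steady genes was 3.68, 3.87 and 4.51.

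Within libraries, the difference of the median log2 fold enrichment between variable and steady genes was 0.06 in crab 1, -0.01 in crab 2 and 0.17 in crab 3. Its mean was 0.07 ± 0.09 (SD, n = 3 libraries), smaller than the spread between libraries. An exact two-sided sign-flip permutation test over the 3 libraries gave p = 0.5, where the smallest value that this design allows is 0.25. The variable genes were higher in 2 of 3 libraries. With 3 libraries no difference of any size could pass a threshold of 0.05.

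The promoters of the genes with crab 3 lowest had weaker peaks than those of the genes with crab 3 highest. The medians were 2.59, 2.85 and 2.82 in crabs 1, 2 and 3 for the set of 19, and 4.03, 3.91 and 5.25 for the set of 137. The run on CM024136.1 contributed to this, with 1 broad peak shared by 3 of its models at fold enrichments of 1.79, 1.92 and 1.99 and a peak at 1.61, 1.66 and 1.51 for evm.TU.CM024136.1.358. The peaks of the run on CM024100.1 were between 2.05 and 2.44, and crab 2 had none at the first 2 genes. The difference between these groups was not tested, because the genes of a run share their peaks.

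The fold enrichment at promoters also differed between the ATAC libraries. Peaks of each library were called on their own, so a difference between animals cannot be told from one between libraries. Where all 3 libraries had a peak, the highest fold enrichment was a median of 1.47 times the lowest for the 111 variable genes and 1.44 times for the 161 steady genes. It was at least 2 times the lowest in 15 of the 111 (13.5%), against 9 of the 161 (5.59%) and against 10.2% of all 6597 genes with a promoter peak in every library. In all 15 the ATAC library of crab 3 was highest, as it was in 8 of the 9 steady genes. Its RNA library was highest in the 15 too, but it was so in 85.1% of all variable genes, and nothing is read from this. An example is evm.TU.CM024129.1.75, at 1523475 to 1526292 on CM024129.1, with fold enrichments of 4.64, 3.63 and 8.04 and levels of 192, 111 and 1081 FPKM. Another is evm.TU.CM024135.1.206, at 8901887 to 8921391 on CM024135.1, with fold enrichments of 7.60, 5.08 and 11.4 and 53.2, 50.0 and 237 FPKM. The first of these was chosen after its values were seen, and the second has one of the 4 strongest promoters of the set.

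The same crab was highest in expression and in promoter fold enrichment for 111 of 161 variable genes (68.9%) and for 141 of 244 steady genes (57.8%), while the share was 39.5% over all 7395 genes with a mean of at least 1 FPKM and a promoter peak. These shares depend on how often each library is highest. The ATAC library of crab 3 was highest at 75.8% of the variable genes, 75.0% of the steady genes and 72.3% of all such genes. It was highest at 107 of the 137 genes with crab 3 highest in expression (78.1%) and still at 12 of the 19 genes with crab 3 lowest (63.2%). Of those 19, 14 had a peak in every library, and crab 3 had the lowest fold enrichment in only 2 of the 14.

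**Figure D4:**
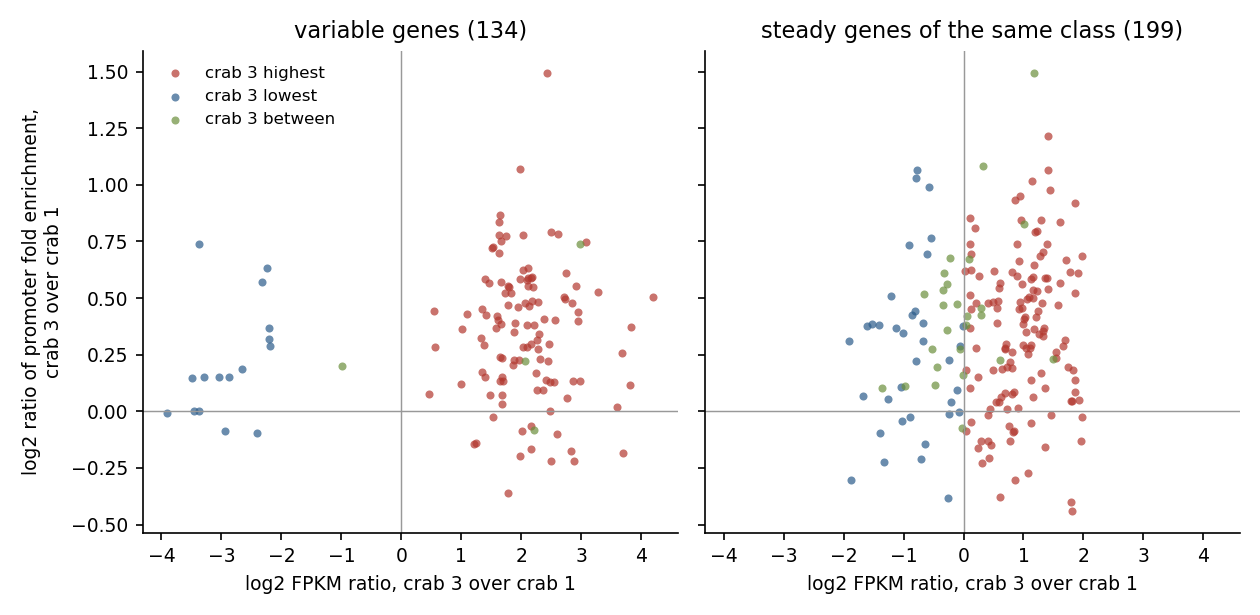
Ratio of crab 3 to crab 1 in FPKM (horizontal axis, log2) and in promoter fold enrichment (vertical axis, log2), 1 point per gene with a promoter peak in both ATAC libraries, for 134 variable genes (left) and 199 steady genes (right). Most points lie above 0 on the vertical axis on either side, 117 of the 134 variable genes and 165 of the 199 steady genes, also where the transcript was lowest in crab 3 (blue).

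The gene evm.TU.CM024127.1.389 shows this most clearly. This model without an intron at 11367573 to 11368550 on CM024127.1 had 185, 105 and 17.9 FPKM in crabs 1, 2 and 3, while its promoter had fold enrichments of 3.96, 4.87 and 6.60. Its transcript was lowest in the crab whose ATAC library had the highest fold enrichment there. In evm.TU.CM024146.1.679, at 22840962 to 22878004 on CM024146.1, the levels were 518, 198 and 110 FPKM, and the fold enrichments of 3.94, 4.32 and 6.12 ran the other way.

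Strong promoters were found with moderate as well as high levels. After evm.TU.CM024099.1.256, the strongest were those of evm.TU.CM024117.1.97, with 7.95, 7.78 and 9.31, evm.TU.CM024135.1.206, given above, and evm.TU.CM024135.1.741, with 6.12, 7.18 and 10.5. These 3 genes had means of 102, 113 and 273 FPKM, beside a median of 239 FPKM over the variable genes. At the other end, 25 variable genes had a promoter peak in 1 library alone, 10 in crab 1, 2 in crab 2 and 13 in crab 3. The most abundant was evm.TU.CM024147.1.671, at 20198480 to 20228665 on CM024147.1, with 309, 256 and 1655 FPKM and a peak only in crab 2, at 2.06. It was followed by evm.TU.CM024129.1.21, at 413069 to 431749 on CM024129.1, with 217, 192 and 1342 FPKM and a peak only in crab 3, at 5.79.

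The peaks lay close to the TSS, which the rule partly sets, since only peaks overlapping 2 kb on either side of it were taken. The summit was within 500 bases of it in 61.8%, 62.6% and 63.1% of the variable genes with a peak in crabs 1, 2 and 3, against 59.6%, 61.9% and 57.5% of the steady genes. The median distance, taken without its sign, was 276, 284 and 222 bases for the variable genes and 327, 283 and 336 bases for the steady genes. Summits of the genes with crab 3 lowest lay farther out, at a median of 713, 378 and 493 bases, and these include the shared peaks of the 2 runs. The strongest promoter peak also overlapped the 2 kb window of another TSS in 59 of 161 variable genes (36.6%) and in 55 of 244 steady genes (22.5%), so that a peak could not always be given to 1 gene. No share over all genes is given beside these, and genes on the same peak were each counted. Nothing is therefore read from the difference between the 2 shares.

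**Figure D5:**
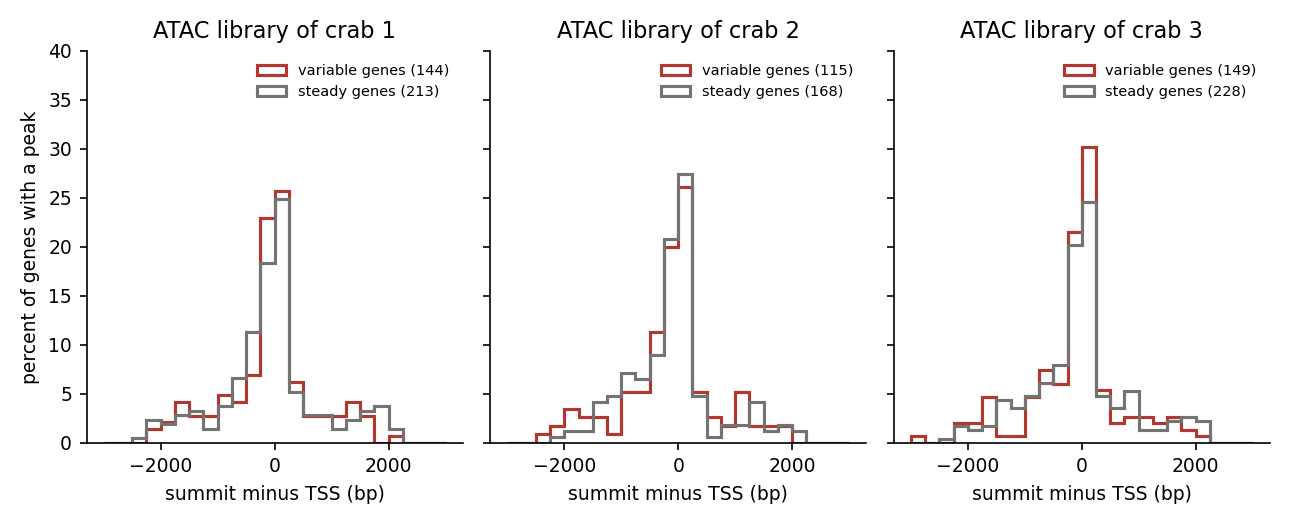
Distance of the summit of the strongest promoter peak from the TSS, in bases along the direction of transcription, as a percent of the genes with a peak in each ATAC library (bins of 250 bases), for variable genes (red) and steady genes (grey). Only peaks overlapping the 2 kb on either side of the TSS were taken. Both groups crowd around the TSS in every library, with 61.8% to 63.1% of the variable genes and 57.5% to 61.9% of the steady genes within 500 bases.

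Some variable genes also belong to the lists of genes called different between molting stages in both assays by the study. This held for 14 of 161 variable genes (8.70%) and 38 of 244 steady genes (15.6%), beside 12.8% of the whole class and 5.67% of all genes with a mean of at least 1 FPKM. Inter-molt libraries also entered the lists of the comparisons with post-molt and pre-molt, which held 2 of the 14, so for these the lists were not made independently of the values used here. The list called down-regulated in the comparison of pre-molt and molt held 8 of the 14, and the up-regulated list of that comparison held 3. The remaining 3 were spread over the comparisons of post-molt with inter-molt and of molt with post-molt.

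Among these 14, evm.TU.CM024096.1.377, at 13498961 to 13504025 on CM024096.1, had 153, 455 and 1486 FPKM in crabs 1, 2 and 3, and its promoter was open in all, at 3.74, 3.63 and 5.40. Levels of 115, 527 and 677 FPKM were found for evm.TU.CM024144.1.142 (CM024144.1, 3959379 to 3965094), with a peak only in crab 3. On plain read totals crab 2 was highest there, with 671 FPKM against 119 in crab 1 and 333 in crab 3, so that crab 1 was the low one under both scalings. Both are on the down-regulated list of pre-molt and molt, as is evm.TU.CM024097.1.103, at 2938374 to 2949217 on CM024097.1, with 104, 40.3 and 422 FPKM. The genes on the up-regulated list were evm.TU.CM024127.1.389 and evm.TU.CM024146.1.679, both lowest in crab 3, and evm.TU.CM024114.1.247, lowest in crab 1.

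The remaining listed genes followed the common pattern, as did evm.TU.CM024147.1.671, given above, which is on the down-regulated list. The levels were 138, 114 and 627 FPKM for evm.TU.CM024119.1.408, 101, 48.0 and 248 FPKM for evm.TU.CM024104.1.257, and 77.5, 37.1 and 273 FPKM for evm.TU.CM024154.1.182. The short model evm.TU.CM024100.1.642, of 187 bases without an intron, had 54.0, 107 and 245 FPKM from 71, 188 and 178 reads, and on plain totals crab 2 was highest there, at 136 FPKM against 56.1 in crab 1 and 120 in crab 3. From the comparison of post-molt with inter-molt came evm.TU.CM024107.1.207, with 174, 40.3 and 254 FPKM, and evm.TU.CM024147.1.193, with 146, 77.1 and 384 FPKM. Of these, evm.TU.CM024107.1.207 was highest in crab 1 on plain read totals, at 181 FPKM against 125 in crab 3. From molt with post-molt came evm.TU.CM024100.1.576, with 53.2, 51.2 and 289 FPKM. All these genes had crab 3 highest as deposited.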

How the data were processed

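Muscle of 3 inter-molt crabs was measured by RNA-seq and ATAC-seq, 1 library per crab and assay, and samples were grouped by the assay and number in their titles. The study's methods divide each crab's sample between both assays. The authors aligned RNA reads with HISAT2 (2.0.5), counted uniquely mapped reads per gene with featureCounts (1.5.0-p3) and deposited FPKM values. FPKM times gene length was a whole multiple of 1 step in each library (within 1% of the read count for 100% of values), which gave reads per gene and FPKM on plain totals. Gene positions and lengths in bases are other deposited values. The authors called ATAC peaks per library with MACS2 after BWA alignment, and their deposited columns hold a score, a fold enrichment (ratio), −log10 p and −log10 q. The columns were used as deposited, with peak starts counted from 1, and the strongest summit stood for a peak that had several. A shift of reads for the transposase was not stated.

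Promoter fold enrichment was the highest of any peak overlapping the TSS with 2 kb on either side, with 0 for none. Strand use in counting was not stated. With 1 library per crab and assay, differences between crabs have no replicate check, and the only test was an exact sign-flip permutation over ATAC libraries. Named genes were taken by rule: the 6 most abundant, the widest ranges by highest crab (6, 4 and 4), 3 on either side of the range limit, the 4 strongest promoters, neighbouring members, members on the stage lists and the 2 most abundant with a peak in 1 library. Exceptions are said in the text: evm.TU.CM024144.1.312 and evm.TU.CM024129.1.75, with the genes of the flanks and of the group with crab 3 between, were named after their values were seen. The members, lists and comparisons were chosen with earlier results of these data known. The functions were tested on simulated data. RefSeq identifiers matched 0 of the gene models, and no sequence is printed. Alternatives covered scaling, pseudocount, level floor, promoter width, peak threshold and left-out libraries. Software was numpy 2.4.6, pandas 2.3.3, scipy 1.17.1 and matplotlib 3.10.9 under python 3.11.15.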

Additional observations from a re-analysis of the deposited data

How the results depend on the processing

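The number of variable genes was 161, and it moved most with the library scaling, the level floor and the third RNA library. On plain read totals 73 genes met the rule, of which 34 were among the 161 (21.1% of the 161 and 46.6% of the 73), with crab 3 highest in 11 and lowest in 56. Scaling by the median ratio of genes gave 172, of which 150 were among the 161. Without a floor on the mean the count was 833. Leaving out 1 RNA library gave between 7 and 125 genes, with 7 without crab 3, 100 without crab 2 and 125 without crab 1, where fewer libraries also make a range of 2 harder to reach. Without crab 1 or crab 2, crab 3 was the higher in 115 and 83 of the genes found. The count was between 111 and 236 under the other alternatives of pseudocount, floor, promoter width and peak threshold. The number of variable genes with a neighbour highest in the same crab was 129 as deposited and 81 on plain totals, and 24 genes stood in adjacent pairs as deposited against 14 on plain totals with the set rebuilt. The count of promoters open in all 3 libraries was between 82 and 119, and the count with the same crab highest in both assays between 103 and 111. The difference in promoter fold enrichment stayed positive under every alternative run, between 0.02 and 0.11 without 1 ATAC library. The alternatives for crab 3 lowest, for adjacent pairs and for crab 3 highest without 1 RNA library were chosen after seeing the data. No paired analysis was possible because no test compares groups of samples: there is 1 group per assay, and the sign-flip test already takes its differences within each ATAC library. Of the 19 genes with crab 3 lowest, 7 had under 100 reads there, which limits their folds, and the spread between 3 crabs limits every other value.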
